A study of Mus musculus with 6 samples.

Results

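The Klf family was examined through the open chromatin around 10 of its genes, Klf2, Klf3, Klf5, Klf6, Klf7, Klf9, Klf10, Klf12, Klf13 and Klf15, in neural stem and progenitor cells (NSPCs) with and without SRR2–18, a cluster of enhancers downstream of Sox2. An interval of open chromatin was assigned to a Klf gene when its strongest summit, the position of highest fold enrichment over local background, had a transcription start site (TSS) of that gene as its nearest protein-coding TSS, at most 50 kb away. All distances below, also those beside sequences, are from that nearest TSS. At genes with several starts it can differ from the gene end printed in the coordinates. This rule found 68 of 82885 intervals in the parent list and 69 of 107480 in the deletion list, or 137 of 190365 in all. The genes are 10 of 21951 protein-coding genes of the GENCODE M21 basic annotation. A further 118 parent and 199 deletion intervals had one of these genes as the nearest but lay beyond 50 kb and were not counted.

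ATAC-seq, in which a transposase inserts sequencing adapters wherever DNA is accessible, was performed on NSPCs derived from 129S1/Cast F1 hybrid mouse ESCs and expanded in N2B27 medium with EGF and bFGF. The 3 parent cultures were of Clone 5B, which carries a Sox2-mCherry reporter on the 129 allele and an intact enhancer cluster. The 3 deletion cultures were of Clone 47D, which carries the same reporter and a homozygous SRR2–18 deletion (ΔSRR2–18). Each genotype was thus 1 clone, and an effect of the deletion cannot be told apart from a difference between clones. The question was which accessible sites differ once Sox2 is uncoupled from these enhancers. The authors combined the cultures of each genotype into 1 peak list, so no value below has a replicate error and no test between genotypes could be made. The confidence intervals given cover counting error only.

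All 11 NSPC marker genes examined had an open promoter in both lists, against 2 of 6 pluripotency markers in each. Open promoters were counted at 1 of 6 epithelial, 3 of 5 mesenchymal and 3 of 5 neuronal markers in the parent and at 2, 5 and 4 of them in ΔSRR2–18, and at 1 of 4 blood markers in both. The part of these other markers in the results below was not tested. The deleted span held 4 parent intervals and no ΔSRR2–18 interval. Depth per culture is unknown, but the lowest background of each list, a genome-wide mean, was 38.8 reads in the parent and 19.7 in ΔSRR2–18, a ratio of 1.98. In these bulk cultures, fewer cells with a site open and a less open site in each cell cannot be told apart.

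Krüppel-like factors are transcription factors that bind GC-rich DNA and the CACCC box through zinc fingers at their C-terminal end, where they share their targets with the Sp proteins. Their N-terminal parts differ. Klf2, Klf5, Klf6 and Klf7 act mostly as activators, Klf3 and Klf12 recruit the CtBP corepressors, and Klf9, Klf10 and Klf13 recruit the Sin3 corepressor complex. In neural tissue, Klf6 and Klf7 are known for supporting axon growth and Klf9 for restraining it.

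Outside promoters, 68.5% of parent and 72.2% of deletion Klf intervals were genotype-specific, against 57.2% and 64.5% of intervals over all genes. The confidence interval of each Klf share includes the share over all genes, so these shares do not set the family apart. The strongest genotype-specific sites outside promoters with a KLF/SP match (CCNCNCCC) or an AP-1 match (TGANTCA) are shown. Each window reaches 100 bp to each side of the summit (mm10, plus strand), with those matches in capitals. Each motif was searched on both strands, and the CACCC box (CCACACCC) is a special case of the KLF/SP letters. The 3 parent-only windows hold KLF/SP matches and no AP-1 match. Of the 5 deletion-only windows, 4 hold AP-1 matches. Stronger sites of both classes without either match were passed over, so a match in each window was fixed by the choice. Motif shares over all sites of each class are given below.
Klf13, 12.5 kb upstream, parent only, chr7:63951294-63951494: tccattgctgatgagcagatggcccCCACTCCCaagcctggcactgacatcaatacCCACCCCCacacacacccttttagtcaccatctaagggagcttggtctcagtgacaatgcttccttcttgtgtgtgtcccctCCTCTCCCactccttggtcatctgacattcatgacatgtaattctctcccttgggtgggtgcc
Klf13, 48.0 kb upstream, parent only, chr7:63986807-63987007: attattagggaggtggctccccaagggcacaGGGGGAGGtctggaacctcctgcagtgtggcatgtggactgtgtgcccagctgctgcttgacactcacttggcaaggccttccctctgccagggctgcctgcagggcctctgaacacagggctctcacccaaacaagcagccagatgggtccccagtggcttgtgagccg
Klf7, 21.8 kb upstream, parent only, chr1:64143209-64143409: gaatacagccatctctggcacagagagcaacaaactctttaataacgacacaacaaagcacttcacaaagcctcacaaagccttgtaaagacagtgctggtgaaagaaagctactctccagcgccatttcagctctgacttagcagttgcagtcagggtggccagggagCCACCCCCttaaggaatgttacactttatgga
Klf12, 43.4 kb downstream, deletion only, chr14:100241183-100241383: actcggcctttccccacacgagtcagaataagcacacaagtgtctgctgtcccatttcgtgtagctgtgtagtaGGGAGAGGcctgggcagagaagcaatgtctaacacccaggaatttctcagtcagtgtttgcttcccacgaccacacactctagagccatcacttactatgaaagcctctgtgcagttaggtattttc
Klf6, 25.5 kb downstream, deletion only, chr13:5886905-5887105: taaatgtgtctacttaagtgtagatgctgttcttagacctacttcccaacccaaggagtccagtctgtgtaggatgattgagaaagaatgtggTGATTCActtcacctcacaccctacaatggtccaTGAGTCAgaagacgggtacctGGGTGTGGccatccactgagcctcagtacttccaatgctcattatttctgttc
Klf3, 22.0 kb downstream, deletion only, chr5:64834228-64834428: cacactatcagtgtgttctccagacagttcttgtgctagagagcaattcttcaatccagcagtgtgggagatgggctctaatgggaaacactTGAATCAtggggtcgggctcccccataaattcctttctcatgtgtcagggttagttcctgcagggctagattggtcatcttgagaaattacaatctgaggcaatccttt
Klf6, 31.4 kb downstream, deletion only, chr13:5892796-5892996: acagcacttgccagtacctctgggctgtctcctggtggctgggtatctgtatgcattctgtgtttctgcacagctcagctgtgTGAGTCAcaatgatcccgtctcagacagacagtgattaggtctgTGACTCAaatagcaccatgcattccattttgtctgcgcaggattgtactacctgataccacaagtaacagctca
Klf6, 23.9 kb upstream, deletion only, chr13:5837465-5837665: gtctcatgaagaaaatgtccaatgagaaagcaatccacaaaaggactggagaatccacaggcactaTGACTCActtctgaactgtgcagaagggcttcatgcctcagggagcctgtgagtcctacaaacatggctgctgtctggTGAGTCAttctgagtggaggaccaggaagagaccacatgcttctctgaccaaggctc

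A second set shows the shared sites with the most unequal reads between genotypes, chosen after their values were seen. In both windows the capitals mark SOX matches (ACAANG, the core letters bound by Sox2 and its relatives) and AP-1 matches. The Klf13 window holds 3 SOX matches and no AP-1 match, and the Klf6 window 2 of each. The Klf15 promoter is shown as the 250 bases before its RefSeq start (GRCm38.p6, plus strand), with KLF/SP matches in capitals, because the highest summit of the promoter interval stood elsewhere in the parent than in ΔSRR2–18, where it lies within these bases.
Klf13, 18.2 kb upstream, shared, chr7:63957055-63957255: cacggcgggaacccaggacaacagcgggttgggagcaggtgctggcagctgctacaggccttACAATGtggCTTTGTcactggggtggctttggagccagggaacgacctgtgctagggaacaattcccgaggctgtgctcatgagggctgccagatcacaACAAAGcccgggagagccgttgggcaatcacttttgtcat
Klf6, 16.2 kb upstream, shared, chr13:5845213-5845413: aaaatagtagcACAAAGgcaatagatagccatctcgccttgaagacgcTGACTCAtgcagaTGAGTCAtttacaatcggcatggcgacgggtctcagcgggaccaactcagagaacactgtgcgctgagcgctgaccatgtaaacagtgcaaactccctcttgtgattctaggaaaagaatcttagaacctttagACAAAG
Klf15, promoter, chr6:90462326-90462575: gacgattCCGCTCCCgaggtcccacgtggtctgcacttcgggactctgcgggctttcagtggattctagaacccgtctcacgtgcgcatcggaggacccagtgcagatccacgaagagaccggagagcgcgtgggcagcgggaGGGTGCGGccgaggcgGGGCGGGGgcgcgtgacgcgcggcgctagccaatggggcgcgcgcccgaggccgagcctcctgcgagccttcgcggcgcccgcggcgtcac

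Every one of the 10 genes had an open promoter, an interval with its strongest summit within 1 kb of a TSS, in both genotypes, as did 12234 of 17643 genes with an interval in the parent and 12923 in ΔSRR2–18. Such intervals were 14 of 68 in the parent (20.6%, against 25.1% of all intervals within 50 kb) and 15 of 69 in ΔSRR2–18 (21.7%, against 22.7%). In the parent, 1 of the 14 had no overlapping ΔSRR2–18 interval, a share of 7.14% (95% Wilson interval 1.27% to 31.5%), against 8.91% of all parent promoter intervals. None of the 15 in ΔSRR2–18 lacked a parent counterpart (upper Wilson limit 20.4%), against 14.0% of all. The exception was a second Klf12 interval, 983 bp inside the gene with 1896 reads in the parent, next to a promoter interval that was shared. The main promoters of the 10 genes stood within the top 13.8% of parent intervals and the top 16.5% of ΔSRR2–18 intervals by reads. The strongest summits of promoter intervals ranged from 1356 to 8466 reads in the parent, with a median of 5635, and from 188 to 3372 in ΔSRR2–18, with a median of 2395.

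Because the parent list had the higher genome-wide background, reads of shared intervals were compared as a log2 ratio of ΔSRR2–18 to parent after subtracting the median of all shared pairs (−1.22). On this scale the main promoters of the activators lay close to 0. Klf2, which governs quiescence in endothelium, had 6936 reads at its promoter in the parent and 2886 in ΔSRR2–18, a relative log2 ratio of −0.04. Klf5, a driver of proliferation in gut epithelium, had 5650 and 2473 reads (0.03). The promoter of Klf6, a gene induced by injury and growth signals, held 7133 and 3339 reads (0.13), and that of Klf7 held 8199 and 3372 (−0.06). None of these 4 promoters differed from the median pair by more than 0.13. Over the 14 Klf promoter pairs the median was −0.03, against −0.23 over all promoter pairs.

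Among the repressors, Klf3 had 4903 and 2596 reads at its main promoter (0.30), Klf12 had 2859 and 1354 (0.14) at summits 434 bp apart, Klf9 had 5709 and 2229 (−0.14) and Klf13 had 6833 and 2889 (−0.02). At the parent's Klf12 summit the nearest ΔSRR2–18 summit gave −0.76, and at the ΔSRR2–18 summit the nearest parent one gave 0.86. Klf10, first known as a gene induced by TGF-β, had open promoters at both of its annotated starts. The outer one held 8466 reads in the parent, the most of any Klf site, and 2617 in ΔSRR2–18 (−0.47, 95% interval −0.54 to −0.41), whereas the inner one held 5620 and 2395 (−0.01). Of 14 shared promoter pairs, 11 lay within 0.5 of 0 on the log2 scale.

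The 3 promoter pairs outside that range were all lower in ΔSRR2–18. They were the Klf15 promoter interval, with at most 4718 reads in the parent and 959 in ΔSRR2–18, and the sites at internal starts of Klf3 and Klf13. Klf15 is known for the control of glucose and amino acid metabolism and for its induction by glucocorticoids. The relative log2 ratio of its highest summits was −1.08 (95% interval −1.18 to −0.98), but the parent interval spans 2 separate ΔSRR2–18 intervals and these summits lie 1144 bp apart. At the parent's summit, 989 bp downstream of its nearest start, the nearest ΔSRR2–18 summit had 570 reads (−1.83). At the ΔSRR2–18 summit, 57 bp before a different annotated start, the nearest parent summit had 2719 reads (−0.28), close to the median of all promoter pairs. The internal Klf3 start had 2116 and 188 reads (−2.27, −2.49 to −2.06) and the internal Klf13 start 2442 and 257 (−2.03, −2.22 to −1.84). At both genes the main promoter was higher on this scale than the internal start. The internal Klf3 value was −1.73 when the parent interval was set against the higher of the 2 ΔSRR2–18 intervals that overlap it, −2.50 at the parent's summit and −0.46 at the ΔSRR2–18 summit. The internal Klf13 value was the same at both summits.

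**Figure D1:**
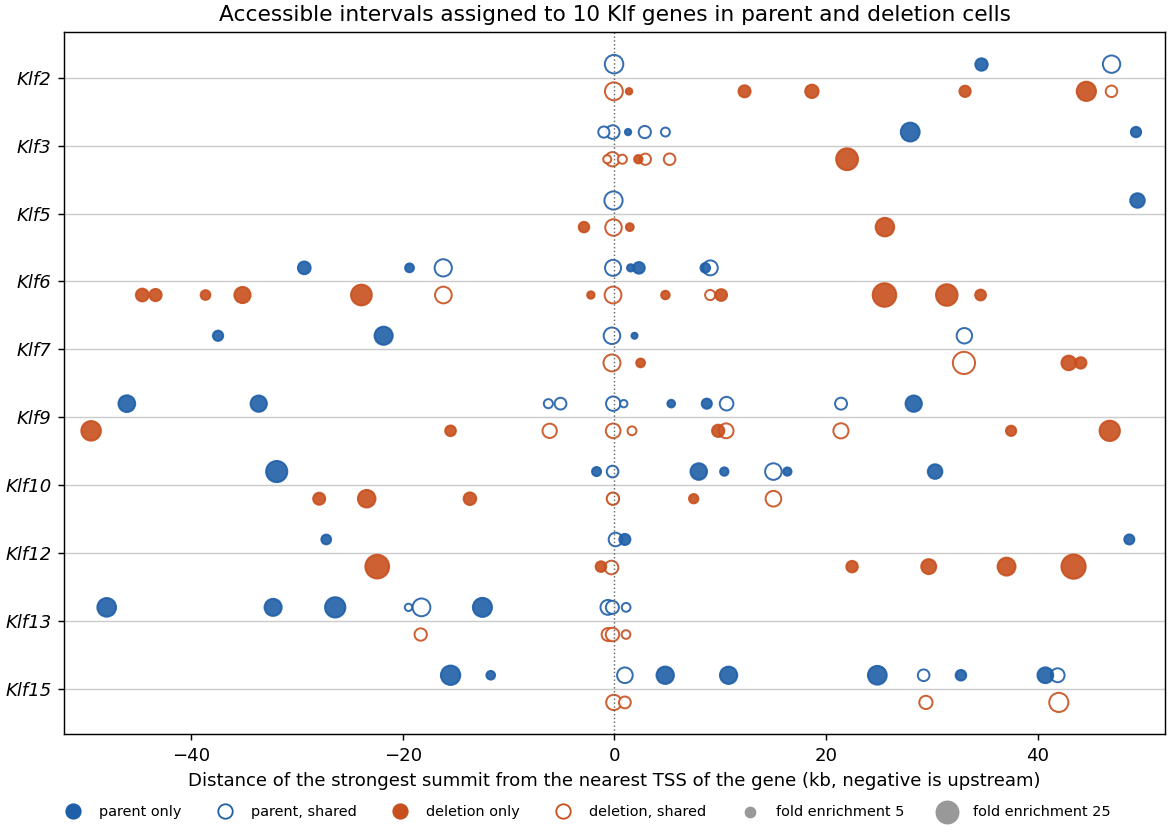
Position of each of the 137 intervals relative to the nearest TSS of its gene (kb, negative is upstream). Each gene has a parent row (blue) above a ΔSRR2–18 row (orange), filled circles have no overlapping interval in the other genotype, open circles have one, and circle area is proportional to fold enrichment. Open circles gather at the TSS in all 10 genes, while filled circles are 4 blue and 0 orange at Klf13, 7 blue and 0 orange at Klf15, and 5 blue and 11 orange at Klf6.

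Away from promoters most sites were found in 1 genotype. Over all distances, 38 of 68 parent intervals (55.9%, 44.1% to 67.1%) were parent only, against 45.0% of all parent intervals within 50 kb of a TSS. Deletion-only intervals made up 39 of 69 (56.5%, 44.8% to 67.6%), against 53.0%. More than 1 kb from a TSS the numbers were 37 of 54 in the parent (68.5%, 55.3% to 79.3%), where all intervals gave 57.2%, and 39 of 54 in ΔSRR2–18 (72.2%, 59.1% to 82.4%), where all gave 64.5%. The interval of each of these 4 shares includes the share of all intervals beside it.

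Parent-only intervals lay at a median of 23.3 kb and deletion-only ones at 23.9 kb from the TSS, against 16.3 and 16.0 kb over all genes, with 21 of 38 and 19 of 39 outside any annotated gene. More than 5 kb from any interval of the other genotype were 15 parent-only (39.5%, against 47.4% of all parent-only intervals) and 22 deletion-only intervals (56.4%, against 56.7%). Within 1 kb of one lay 9 (23.7%, against 16.1%) and 8 (20.5%, against 12.4%). In the other genotype's optimal list, which is longer, 5 of 38 (all 7.13%) and 2 of 39 (all 3.93%) had an overlapping interval.

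Behind these totals, single genes went in opposite directions. In 4 genes (Klf2, Klf5, Klf6 and Klf12) deletion-only intervals outnumbered parent-only ones, against 45.1% of all genes with an interval. In another 4 (Klf3, Klf10, Klf13 and Klf15) parent-only intervals were more, against 27.2%, and in Klf7 and Klf9 the numbers were equal. An excess of at least 5 was found for Klf6 in ΔSRR2–18, which 5.57% of genes reached, and for Klf15 in the parent, which 2.13% reached. By role, parent-only intervals were 10 of 18 at the 4 activators, 6 of 11 at the 2 CtBP-binding repressors, 15 of 29 at the 3 Sin3-binding repressors and 7 of 10 at Klf15, or 55.6%, 54.5%, 51.7% and 70.0%. Deletion-only intervals were 22 of 30, 8 of 14, 9 of 21 and 0 of 4, or 73.3%, 57.1%, 42.9% and 0%. Over all genes 45.0% of parent intervals were parent only and 53.0% of ΔSRR2–18 intervals deletion only. The Wilson interval of each parent-only share includes the share over all genes. Among deletion-only shares, those of the activators (55.6% to 85.8%) and Klf15 (upper limit 49.0%) do not. These intervals count sites at the same gene as independent, and the roles were chosen with earlier results of these data known. They therefore do not set a role apart. Klf6 alone gave 11 of the 22 at activators. The direction was not uniform within a role. The CtBP-binding repressors went opposite ways, with 1 more parent-only interval at Klf3 and 3 more deletion-only ones at Klf12, while Klf7 and Klf9 were even.

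**Figure D2:**
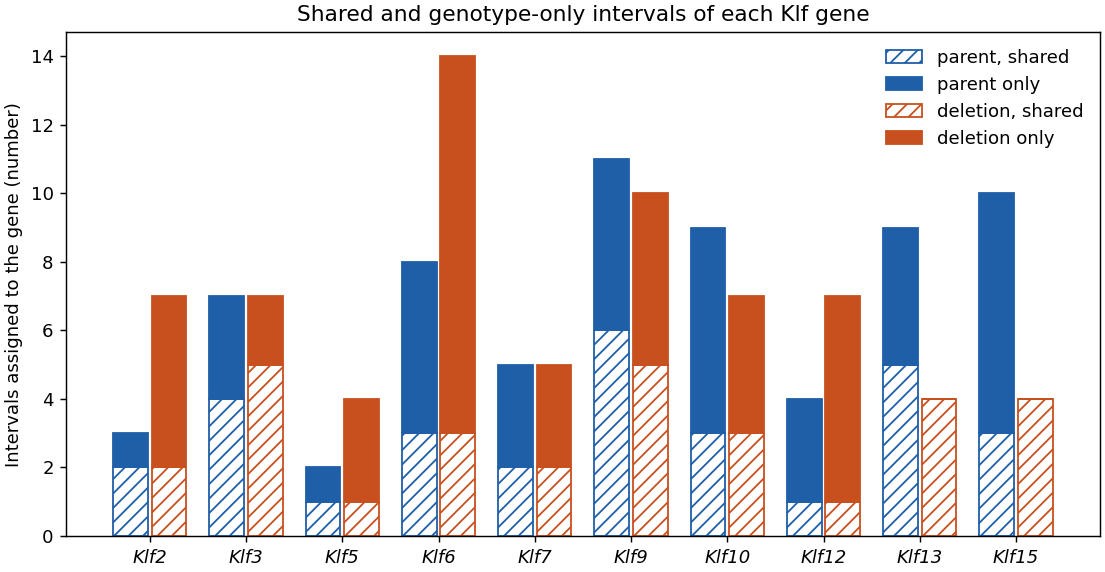
Number of intervals assigned to each gene, in the parent (blue) and in ΔSRR2–18 (orange), split into those shared with the other genotype (hatched) and those found in 1 genotype (solid). Klf6 goes from 8 to 14 intervals and Klf2 from 3 to 7, whereas Klf13 goes from 9 to 4 and Klf15 from 10 to 4 with no deletion-only interval in either.

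Klf6 (chr13:5861482-5870394, plus strand) had the largest excess of deletion-only intervals. There were 8 intervals in the parent, 5 of them parent only, and 14 in ΔSRR2–18, of which 11 were deletion only. The latter ran from 44.6 kb upstream to 34.6 kb downstream of the start. The strongest, 25.5 kb downstream, had a fold enrichment of 28.3 from 1113 reads and held 2 AP-1 matches, the nearer centred 4 bp from the summit, and a CACCC box. A site 31.4 kb downstream had a fold enrichment of 23.8 from 1381 reads, and one 23.9 kb upstream 22.0 from 3233 reads. The last of these was about as deeply read as the Klf6 promoter in the same cells, and its nearest parent interval was 4.07 kb away. Against this direction, a site in the Klf6 intron 2.32 kb from the start had 3825 reads in the parent and no ΔSRR2–18 interval.

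Klf2 (chr8:72319033-72321656, plus strand) had 3 intervals in the parent and 7 in ΔSRR2–18, 5 of which were deletion only. The strongest of these, with 1024 reads and a fold enrichment of 18.96, lay 44.6 kb downstream in an intron of the neighbouring Eps15l1 and 1.37 kb from a parent interval. A small one lay in the Klf2 intron with 360 reads. Klf5 (chr14:99298691-99315036, plus strand) had 2 and 4 intervals. Its strongest deletion-only site, 25.6 kb downstream with 368 reads and a fold enrichment of 17.6, held both AP-1 and KLF/SP matches and was 23.1 kb from any parent interval. Klf7 (chr1:64029447-64122282, minus strand) had 5 intervals in each genotype, 3 of them specific to it. Its strongest parent-only site, 21.8 kb upstream, had 1313 reads but overlapped an interval of the optimal ΔSRR2–18 list.

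Among the CtBP-binding repressors, Klf12 (chr14:99870632-100284679, minus strand) had the 2 deletion-only intervals with the highest fold enrichment of the family. One lay 43.4 kb downstream in its own intron (30.1, 857 reads) and the other 22.4 kb upstream (28.8, 595 reads). The first was 4.85 kb and the second 21.03 kb from the nearest parent interval. Klf12 had 4 intervals in the parent and 7 in ΔSRR2–18, and the most read of its 3 parent-only sites was the one near the promoter, with 1896 reads. Klf3 (chr5:64803388-64832901, plus strand) had 7 in each. A deletion-only site 22.0 kb downstream of the internal Klf3 start had 570 reads (24.4). A parent-only site 27.96 kb downstream of the same start had 725 reads (18.2), with 5.28 kb between them. Both lay beyond the end of the gene.

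Among the Sin3-binding repressors, Klf13 and Klf10 had more parent-only intervals and Klf9 was even. Klf13 (chr7:63886351-63938915, minus strand), which is also known for its role in T cell chemokine expression, had 9 intervals in the parent and 4 in ΔSRR2–18, none of them deletion only. Its 4 parent-only intervals formed a series upstream of the gene, at 12.5, 26.4, 32.3 and 48.0 kb. They held 1804, 5895, 596 and 2908 reads, with fold enrichments between 14.9 and 21.1. Each was at least 4.89 kb from the nearest ΔSRR2–18 interval and none overlapped the optimal list. Klf9 (chr19:23141226-23168134, plus strand) had 11 and 10 intervals with 5 specific to each genotype. Klf10 (chr15:38291463-38300706, minus strand) had 9 and 7, and its parent-only site 31.9 kb upstream had the highest fold enrichment of that class in the family (22.9, 1467 reads). A parent-only site 1.69 kb upstream of Klf10 was read 5019 times over a local background of 1195 reads, a fold enrichment of 4.20.

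Klf15 (chr6:90462576-90475238, plus strand) had 10 intervals in the parent, a density of 15.9 per 100 kb of the sequence nearest to it, which 93.6% of genes did not exceed. In ΔSRR2–18 it had 4, a density of 6.36. Klf15 has 4 annotated starts, and the downstream distances given here are from an inner one, not from the first base printed. Its 7 parent-only intervals included the most read one of that class in the family, inside the gene and 4.80 kb downstream of that inner start, with 6625 reads (15.5). Others held 5493 reads at 40.7 kb downstream, 4474 at 15.5 kb upstream, 1812 at 24.8 kb downstream and 1283 at 10.8 kb downstream. No ΔSRR2–18 interval was specific to it (0 of 4, upper Wilson limit 49.0%). The sites from 24.8 kb onward lie in an intron of Aldh1l1, a gene of folate metabolism used as an astrocyte marker. When outermost gene ends replaced transcript starts in the assignment, the parent excess at Klf15 was 3 instead of 7.

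The direction at some genes rests on assigning sites to protein-coding genes. With the TSS of any gene type as a candidate, 32 parent and 36 ΔSRR2–18 intervals remained with the family. The excess of deletion-only intervals at Klf6 (6) became 1 of parent-only intervals, the excess at Klf12 (3) became 0, and the parent excess was 0 at Klf13 and 1 at Klf15. With only as many ΔSRR2–18 intervals kept as the parent has, by fold enrichment, the excess was 1 at Klf6, 2 at Klf2 and 0 at Klf5, and the parent excess was 7 at Klf15, 5 at Klf13 and 4 at Klf3. The deletion-only excess of 4 at Klf2 was also 2 at an IDR score of at least 830 and 1 with the optimal lists.

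Reads at sites shared by both genotypes diverged at some promoters and at some sites outside them. Of 28 shared Klf pairs, the median relative log2 ratio was −0.03, and −0.06 over all 29730 pairs near a gene. At least 2-fold higher in ΔSRR2–18 were 3 of the 28 Klf pairs, against 15.4% of all pairs near a gene. At least 2-fold lower were 5 of the 28, against 10.3%, and 3 of these 5 were the promoter pairs named above. The other 20 lay between. Distal pairs ranged from −4.26 to 2.67, promoter pairs from −2.27 to 0.36. When pairs were scaled by the background of the lists instead, the Klf median was −0.27 and 6 pairs were lower.

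The widest gap was at the site 18.2 kb upstream of Klf13, in the midst of its parent-only series. It had 7138 reads in the parent, within the top 0.763% of all parent intervals, and 160 reads in ΔSRR2–18, where 85.2% of intervals had at least as many. The relative log2 ratio was −4.26 (−4.49 to −4.03), a 19.1-fold lower value. The site thus counts as shared by overlap, with reads far apart. The site 41.9 kb downstream of Klf15 was also lower, with 4246 reads in the parent and 582 in ΔSRR2–18 (−1.65, −1.77 to −1.52). Its local background was 429 and 30.1 reads, so its rank by fold enrichment went the other way, from the top 49.7% of parent to the top 15.7% of ΔSRR2–18 intervals.

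The 3 pairs that were higher lay at Klf6, Klf7 and Klf9. The site 16.2 kb upstream of Klf6 had 605 reads in the parent and 1647 in ΔSRR2–18 (2.67, 2.53 to 2.80). Its local background was 38.8 and 115.1 reads, and its rank by fold enrichment was lower in ΔSRR2–18 (top 31.6%) than in the parent (top 25.7%). The site 33.1 kb inside Klf7 had 940 and 1371 reads (1.77, 1.64 to 1.89). The site 6.25 kb upstream of Klf9, a gene induced by thyroid hormone and glucocorticoids, had 715 and 1732 reads (2.50, 2.37 to 2.63). The ΔSRR2–18 interval at Klf9 also overlaps a second parent interval with 2615 reads, however, and against that one the value was 0.63, which is not past 2-fold. At Klf6 and Klf7, each interval overlaps 1 interval of the other genotype, and the raw reads were higher in ΔSRR2–18, the list with the lower genome-wide background.

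**Figure D3:**
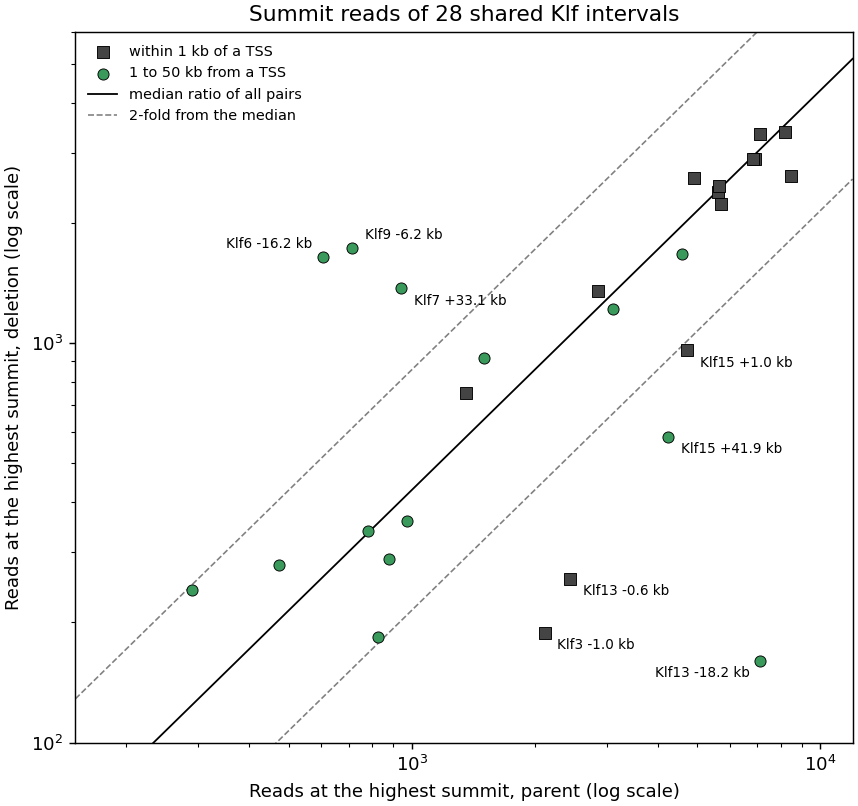
Reads at the highest summit of the 28 shared Klf intervals in the parent (x axis) and ΔSRR2–18 (y axis), both on log scales, for sites within 1 kb of a TSS (squares) and farther away (circles). The solid line is the median ratio of all shared pairs, dashed lines are 2-fold from it, and the 8 labelled sites (by parent distance) lie beyond them, including the site upstream of Klf13 with 7138 and 160 reads. The labelled Klf9 site is paired with the weaker of 2 parent intervals.

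The sequences under the summits were searched for the letters of known motifs. Within 100 bp of the strongest summit, AP-1 letters stood in 16 of 39 deletion-only Klf intervals (41.0%, 27.1% to 56.6%) and in 3 of 38 parent-only ones (7.89%, 2.72% to 20.8%). Over all genes the shares were 50.8% and 4.18%. In flanks 500 bp away from the deletion-only Klf summits the share was 7.69%. AP-1, a dimer of Fos and Jun proteins, binds these letters. The 16 intervals were spread over 8 genes, with 3 each at Klf2, Klf6 and Klf9, 2 each at Klf7 and Klf10 and 1 each at Klf3, Klf5 and Klf12.

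KLF/SP letters, which the family itself binds, were found in 11 of 39 deletion-only intervals (28.2%, 16.5% to 43.8%) and 7 of 38 parent-only intervals (18.4%, 9.22% to 33.4%), against 19.1% and 21.4% over all genes. Both background shares lie inside the intervals. At the parent-only sites the flanks held them more often (32.9%) than the summits. Shared intervals, where promoters are many, held them in 50.0% of parent and 56.7% of ΔSRR2–18 cases, against 42.0% and 40.6%. The RefSeq promoter table matched 8 of the genes, all but Klf5 and Klf10. Of these promoters, 7 held KLF/SP letters within 300 bases, with a median of 3.5 matches and 3 in the Klf15 promoter, compared with 49.5% of 32851 promoters. The Klf12 entry, one of the 7, starts 134 kb from the open Klf12 promoter, and without it 6 of 7 held the letters. The median GC content of the 8 was 66.3% against 52.7%. The 32851 promoters include ones that are not open in these cells. Among open promoter intervals, 8 of 14 Klf ones in the parent held the letters near the summit (57.1%, 32.6% to 78.6%), against 61.4% of all. In ΔSRR2–18 they stood in 11 of 15 (73.3%, 48.0% to 89.1%), against 59.0%. Both intervals include the share of all open promoters.

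The stricter CACCC box was found in 3 of 39 deletion-only intervals and in 0 of 38 parent-only ones (upper Wilson limit 9.18%), against 2.77% and 1.68% over all genes. SOX letters stood in 30.8% of deletion-only and 36.8% of parent-only Klf intervals, and in 34.3% and 46.1% over all genes. TEAD letters (GGAATG) stood in 28.2% and 10.5%, and in 23.5% and 16.9% over all genes, with 6 of the 11 deletion-only cases at Klf6. The interval of each of these Klf shares includes the share over all genes.

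**Figure D4:**
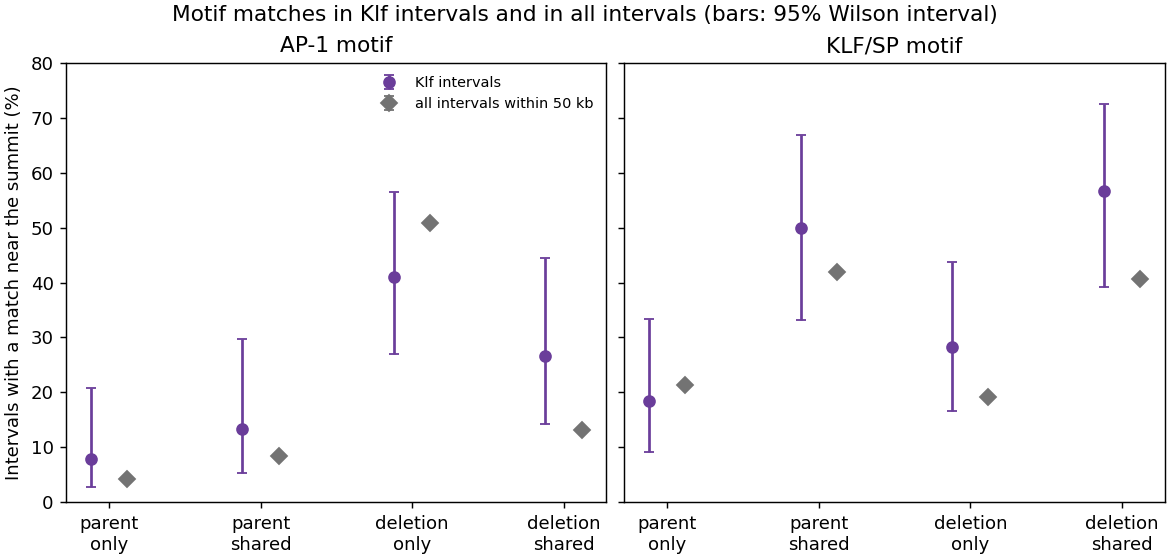
Share of intervals (%) with an AP-1 match (left) or a KLF/SP match (right) within 100 bp of the strongest summit, for Klf intervals (purple circles) and all intervals within 50 kb of a TSS (grey diamonds), with 95% Wilson intervals. AP-1 matches are at 41.0% of deletion-only and 7.89% of parent-only Klf intervals, and KLF/SP matches are highest in the shared classes of both genotypes.

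For comparison, a list of 15 further Klf and Sp genes, which does not hold every remaining one, had 45 intervals in the parent and 54 in ΔSRR2–18. Of these, 15 were parent only (33.3%) and 22 deletion only (40.7%), against 45.0% and 53.0% over all genes. In 5 of these genes deletion-only intervals were more, in 3 parent-only ones were more, and 7 were even. Of all genes with an interval, 45.1% had more deletion-only and 27.2% more parent-only intervals. The genes named next were chosen after their values were seen. Sp8, a factor of forebrain and limb patterning, went from 4 to 9 intervals and Klf11, a close relative of Klf10, from 5 to 2. Among 15 genes for KLF partners and regulators the totals were 80 and 88, with 38 parent-only (47.5%) and 44 deletion-only intervals (50.0%), near the shares over all genes. Of these, 7 genes had more deletion-only intervals, 5 more parent-only ones and 3 were even. Fbxw7, which targets Klf2 and Klf5 proteins for degradation, went from 6 intervals to 18. Mef2c, whose family activates Klf2, went from 14 to 7. The corepressor genes Ctbp2 and Sin3a went from 19 to 16 and from 6 to 5.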

How the data were processed

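ATAC-seq peak lists of 2 genotypes, each from 3 cultures, were analysed. Reads had been mapped to mm10 and peaks called with MACS2 within the ENCODE ATAC-seq pipeline, and cultures were combined by IDR. The deposited columns used here are the score from IDR, the summit position, the fold enrichment and the −log10 p-value of each summit against local background. Conservative lists gave all main values. One allele is Cast, reads that differ from mm10 can map less often, and alleles are not separated.

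Each distinct interval took its values from its summit of highest fold enrichment, and shared pairs took the summit with the most reads. Summit reads are pileup heights, solved from the fold enrichment and the Poisson −log10 p-value, and came out whole within 0.05 for 99.9993% of parent summits. Intervals overlapping by at least 1 bp were shared, and pairs were mutual best overlaps assigned to the same gene. Shares carry 95% Wilson intervals and read ratios carry exact binomial ones. Motifs were exact letter matches within 100 bp of the summit. Fold enrichments were ranked within a list and not compared between lists.

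Named intervals are the strongest of each class by gene and family, promoter intervals, and shared pairs past 2-fold. Other intervals named by their reads were chosen after their values were seen. The members, roles and gene lists were chosen with earlier results of these data known. Alternatives covered list, IDR score, distance, TSS set, list length, overlap, scaling and motif window. Scaling of the parent to the ΔSRR2–18 depth, pairing by the highest of all overlapping intervals, and reading pairs at the same place, were added after the data were seen. Read recovery, overlaps, nearest starts and motif scans were tested on simulated data. Python 3.11.15, NumPy 2.4.6, pandas 2.3.3, SciPy 1.17.1 and pysam 0.24.0 were used.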

Additional observations from a re-analysis of the deposited data

How the results depend on the processing

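Both lists are pooled over cultures, so no result could be recomputed without a replicate. No paired analysis was possible because the 3 replicates of each genotype stand in 1 pooled list. Of 63 family values under an alternative, 50 stayed within 1.5 times the count, inside the counting interval or, for the median ratio, within 0.1. Of 100 per-gene differences (deletion-only minus parent-only intervals), 49 kept their value and 2 changed sign, both at Klf6. The other 49 took another value of the same sign or went to or from 0. The 63 and the 100 values both include a weaker form of the depth correction given below, with 20 as its cut-off instead of 100. It removed none of the 68 parent and 69 ΔSRR2–18 Klf intervals and left every value unchanged. Its entries therefore raise the number of kept values without testing them. Within 10 kb of the TSS, 31 parent and 31 ΔSRR2–18 intervals remained, 35.5% and 32.3% of them specific to a genotype, and the Klf6 difference was −1. With the TSS of any gene type there were 32 and 36 intervals, 43.8% and 44.4% of them specific, and the Klf6 difference was also −1. Scaling by genome-wide background moved the median relative log2 ratio of shared pairs to −0.27. Read at the place of the ΔSRR2–18 summit, a choice made after seeing the data, 3 shared pairs were at least 2-fold lower instead of 5 and 4 higher instead of 3, and at the parent's summit 7 and 3. A motif window of 50 bp on each side lowered AP-1 in parent-only intervals to 2.63% and KLF/SP to 7.89% in parent-only and 15.4% in deletion-only intervals. After the parent was scaled to the ΔSRR2–18 depth and intervals with a −log10 p-value under 100 were dropped from both lists, 54 intervals remained in each and 53.7% of either were specific, against 40.9% of all parent and 53.5% of all ΔSRR2–18 intervals. In that setting the Klf6 difference was 6, the Klf2 difference 1, the Klf13 difference −6 and the Klf15 difference −6. Intervals with few reads limit these counts, since a site just under the caller's threshold in 1 genotype counts as absent.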

Other observations

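The rule leaves out sites in the bodies of long Klf genes that lie beyond 50 kb from a TSS or nearer to another gene. Klf12, the longest of the 10 genes at 414048 bp, held 10 such intervals in the parent, 6 of them without an overlapping ΔSRR2–18 interval, and 14 in ΔSRR2–18, 10 of them without a parent interval. Klf13 held 3 in the parent (2 parent only) and 6 in ΔSRR2–18 (5 deletion only), which is the opposite direction to its upstream series. Klf7 held 4 in the parent, all parent only, and 1 in ΔSRR2–18, which was deletion only. Among all intervals 1 to 50 kb from a TSS, 57.2% of parent and 64.5% of ΔSRR2–18 ones lacked an overlapping interval in the other genotype. Those shares are over an unlike set, since the gene-body sites lie beyond 50 kb from a TSS or nearer to another gene. The gene-body counts are few, and whether they differ from those shares was not tested.

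Shared parent intervals of the family were read more than the average shared site, with a median of 2737 reads against 1420 over all genes, while parent-only Klf intervals had a median of 673 reads against 499. By fold enrichment the shared Klf intervals were lower, with a median of 9.46 against 12.46, and the parent-only ones had 8.09 against 7.48. In ΔSRR2–18 both classes were lower, with 9.39 against 12.17 for shared and 7.59 against 9.10 for deletion-only intervals. Promoters made up 20.6% of parent and 21.7% of ΔSRR2–18 Klf intervals, against 25.1% and 22.7% over all genes.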
